A study of Mus musculus with 2 samples.

Results

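A set of 34 genes that epithelial cells are known for was followed in RNA of monocytic myeloid-derived suppressor cells (M-MDSCs) taken from 4T1 mammary tumours, to describe how much epithelial message these purified cells carried under each diet. The genes were listed by their known roles, with earlier results of these data known. They comprise 6 keratins, 3 adhesion molecules, 4 tight junction genes and 6 regulators. The rest are 4 serine proteases and inhibitors, 7 genes of desmosomes and hemidesmosomes and 4 others. All 34 had at least 1 probe among the 20653 genes with a named probe on the arrays. Female BABL/c mice, 6 to 8 weeks old, were starved for 1 day and received 1000000 4T1 cells, a mouse mammary carcinoma line, under the skin of the left armpit. The normal-salt diet (NSD) group was fed chow with 0.4% NaCl and tap water, and the high-salt diet (HSD) group chow with 4% NaCl and water with 1% NaCl, both for 16 days. Tumours were digested with enzymes, M-MDSCs were drawn out with biotin-bound Gr-1 or Ly-6G antibodies and magnetic beads, and equal numbers of cells were mixed within a group for 1 array per diet. Both arrays came from 1 slide and each group is a pool, so no spread between mice exists and no test was run.

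Epithelial cells hold to each other and to the basement membrane through cadherins, tight junctions, desmosomes and hemidesmosomes, and a scaffold of paired keratins runs between those junctions. Transcription factors such as those of the Grainyhead, Ovol and Ets families keep this programme on, while Zeb and Snail factors silence it by binding E-boxes, short motifs in promoters of genes such as Cdh1. Myeloid cells are not known for most of these genes, so their RNA in a tumour-derived fraction is commonly read as a sign of neighbouring carcinoma or skin cells. In bulk RNA of this kind, fewer cells of a type and less RNA per cell cannot be told apart.

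Most promoter windows at hand for the set share a sequence feature that played no part in listing the genes. Windows from 250 bases before to 50 bases after each annotated RefSeq start (GRCm38.p6) were at hand for only 20 of the 34 genes. They were at hand for 16369 of the 20653 genes with a named probe. Cdh1, Grhl2, Esrp1, Ovol1 and Perp were among the members without a window, so the shares below describe a part of the set. The E-box CACCTG, searched on both strands (CAGGTG on the other), was present in 17 of the 20 (85%), the exceptions being Krt14, Spint1 and Jup. It was present in 3630 of 16369 genes on the arrays (22.2%), in 15 of 27 further epithelial genes (55.6%) and in 10 of 28 leukocyte marker genes (35.7%). At least 2 copies were found in 8 of the 20 (40%), among them Epcam, Cldn4, Cldn7, Ocln, Rab25 and Wfdc2, against 3.35% of genes on the arrays. Median GC content was 60% in the set and 57.3% over genes on the arrays, with 1.2 and 1.22 windows per gene. The Grainyhead motif AACCGGTT was in none of the 20 windows and in 0.220% of genes on the arrays. A match is a description of letters in a window and not evidence of binding.

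The 6 members that were at least 1.5-fold higher in HSD had the E-box, as did 17 of the 20 members with a window. Neither of the 2 lower members was among those 20. A stretch of each of the 6 is printed 5′ to 3′ on the gene's own strand, with every copy of the motif in it in capitals. Krt8 is at chr15:102004421-102004480 on the minus strand (bases -138 to -79 from the start), Krt18 at chr15:102027975-102028034 on the plus strand (-241 to -182) and Epcam at chr17:87635765-87635824 on the plus strand (-214 to -155). Cldn3 is at chr5:134986233-134986262 on the plus strand, after the start (20 to 49), Spint2 at chr7:29282010-29282069 on the minus strand (-92 to -33), and Lamb3 at chr1:193302230-193302259 on the plus strand, across the start (-13 to 17).
Krt8: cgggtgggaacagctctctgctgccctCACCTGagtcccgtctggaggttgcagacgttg
Krt18: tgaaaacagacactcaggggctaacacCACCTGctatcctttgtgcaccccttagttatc
Epcam: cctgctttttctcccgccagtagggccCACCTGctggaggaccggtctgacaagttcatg
Cldn3: caaagccacaggCAGGTGcaggggcagtct
Spint2: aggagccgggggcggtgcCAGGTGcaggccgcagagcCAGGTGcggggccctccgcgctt
Lamb3: gggagctCACCTGagaaCACCTGggtaaac

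**Figure D1:**
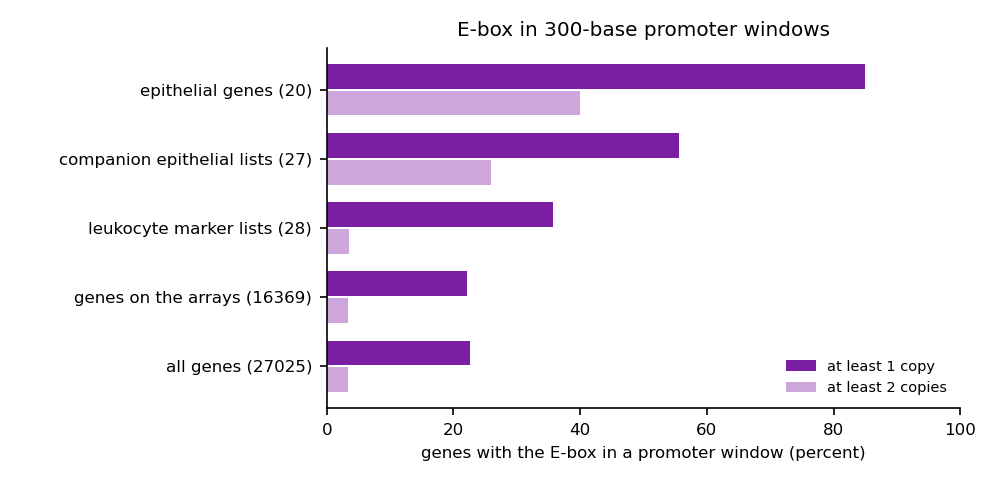
Share of genes whose 300-base promoter window holds the E-box CACCTG on either strand (x axis, %), at least once (dark bars) or in at least 2 copies (light bars), for the epithelial set, companion lists of further epithelial genes, leukocyte marker lists, genes on the arrays and all genes of the RefSeq table, with the number of genes in parentheses. The 20 members with a window stand at 85% and the genes on the arrays at 22.2%.

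Most of the set gave faint signals well above background on both arrays, at a share not far from that of all named genes. A probe counted as well above background where the scanner software marked its spots so. That held for 25 members in NSD, 26 in HSD and 23 on both arrays (67.6%, against 73.6% of all named genes). On at least 1 array the order was reversed, with 82.4% of members and 79.1% of all named genes. Grhl2 and Ovol1 were above background only on the NSD array, and Cldn3, Dsg2 and Lamb3 only on the HSD array. Krt19, Cdh3, Ocln, Elf3, Rab25 and Areg were not well above background on either, with signals between 0.914 and 2.95. Of the 34, 31 had a processed signal under 100 on both arrays, and the exceptions were Spint2, Trp63 and Pkp3. For scale, the 75th percentile over all probes lay at 252 in NSD and 233 in HSD, and the lowest signals among probes well above background at 4.61 and 4.39.

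**Figure D2:**
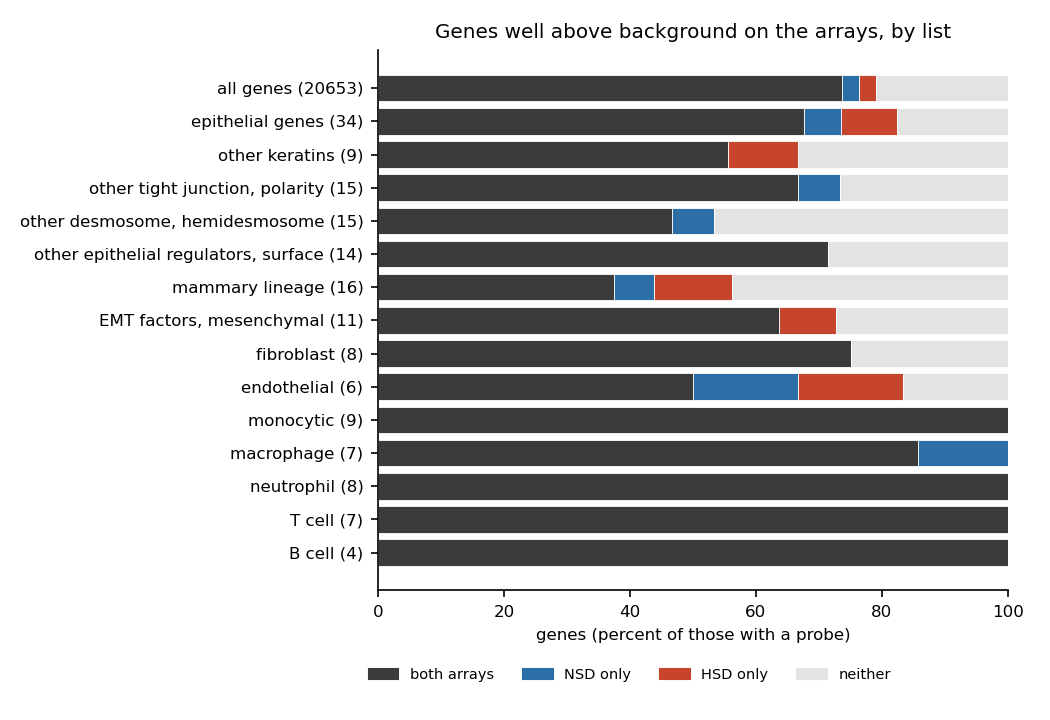
Detection of the set and the marker and companion gene lists: the bars give, for each list, the share of genes (x axis, %) well above background on both arrays (dark), in NSD only (blue), in HSD only (red) or on neither (light grey), with the number of genes in parentheses. Of the epithelial set 67.6% were above background on both arrays, while all 9 monocytic genes with a probe were.

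Fold changes below are log2 differences, HSD minus NSD, of signals set relative to each array's 75th percentile, and a gene was called where the fold was at least 1.5. Because the HSD array was the dimmer one, a member with equal raw signals has a slightly positive difference. Of the 28 members above background on at least 1 array, 6 were called higher in HSD (21.4%; 9.86% of 16312 genes with a usable fold change) and 2 lower (7.14%; 10.3% of genes). Krt8, Krt18, Epcam, Cldn3, Spint2 and Lamb3 made up the first count, and Ovol1 and Perp the second. With normexp background correction of the median spot signals, which adds an offset of 50, 1 member was higher (Spint2) and 1 lower (Ovol1), and the other 6 calls were lost. Counting dim members too gave 7 higher and 5 lower. Among all called genes 48.9% were higher, and with cyclic loess 38.5%, where the members' counts were 5 and 2. That scaling moved the median of all genes by -0.11, and the median of the members stood 0.06 above that of all genes here and 0.07 above it with loess. The median log2 difference was 0.14 over the 34 members and 0.08 over all named genes.

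**Figure D3:**
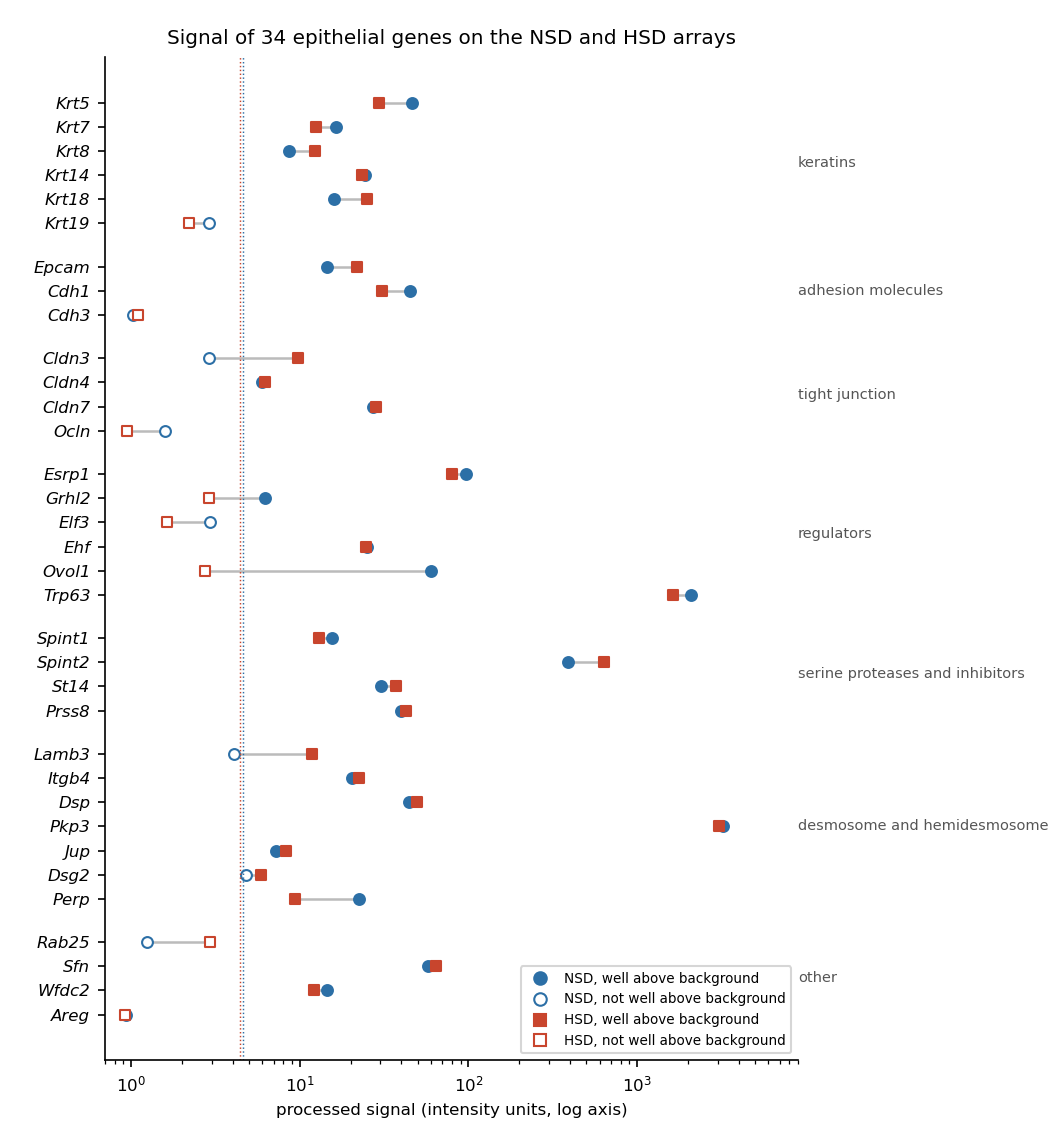
Processed signal of each of the 34 genes on the NSD and HSD arrays (x axis, log scale), grouped by role, with circles for NSD and squares for HSD; open symbols mark values not well above background and dotted lines the lowest signal well above background on each array. Nearly all points lie under 100, with Spint2, Trp63 and Pkp3 to the right.

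The keratins, the intermediate filament proteins of epithelia, did not move together. Krt8 read 8.68 in NSD and 12.2 in HSD, and its partner Krt18, with which it forms the filaments of simple epithelia, read 15.9 and 25.0. Both were higher in HSD, by 1.53-fold (log2 0.61) and 1.70-fold (0.76), and both signals are low. With normexp the differences were 0.17 and 0.34, and neither was called. The basal pair behaved otherwise. Krt5 read 46.6 in NSD and 29.5 in HSD (log2 -0.54, 1.46-fold, short of the call), whereas its partner Krt14 read 24.3 and 23.5 (0.07). A second Krt5 probe was dim on both arrays at 1.47 and 1.45. With the median over both Krt5 probes the difference became -0.22. Krt7, a keratin of glands and ducts, read 16.4 and 12.5 (-0.28), and Krt19, a simple-epithelial keratin, stayed dim at 2.88 and 2.21. The call of Krt8 sat at the edge of the threshold: under the 8 other ways of processing tried for single genes it lay between 0.17 and 0.62 and reached 1.5-fold in 3.

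Of the 3 adhesion molecules only Epcam was called. Epcam, a surface adhesion molecule of epithelia and most carcinomas, read 14.5 in NSD and 21.8 in HSD, a 1.63-fold higher value (log2 0.70; 0.23 and not called with normexp). Cdh1, the E-cadherin of adherens junctions, read 45.0 in NSD and 30.8 in HSD (-0.43, 1.35-fold, not called). Cdh1 is 1 of only 2 members with repeated spots, and its 10 spots per array ran from 41.6 to 49.0 (median 45.5) in NSD and from 26.7 to 33.8 (median 30.6) in HSD. The spots of the arrays did not overlap, and their SDs were 0.08 and 0.09 on the log2 scale. Over 285 probes with at least 8 usable spots per array the median SD was also 0.08. How many of those probes had spots that did not overlap was not counted. Spots of 1 probe share the same RNA, so they show how well each pool was read and nothing of the spread between mice. Cdh3, the P-cadherin of basal cells, was dim at 1.02 and 1.10.

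Among the tight junction genes, Cldn3, a barrier-forming claudin, was not above background in NSD (2.90) and read 9.79 in HSD. Against the lowest signal above background in NSD it was at least 2.30-fold higher on the processed signals. The log2 difference was 1.00 in the deposited values, and 0.27 with normexp, where the call was lost. Its relatives moved little: Cldn4 read 5.97 and 6.24 (0.18), and Cldn7 read 27.1 and 28.4 (0.18). Ocln, the occludin of the junction strand, was dim at 1.58 and 0.940. No member of this group was called lower.

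The regulators held the largest single difference of the set. Ovol1, a zinc-finger repressor that keeps cells epithelial, read 59.9 in NSD and 2.76 in HSD, where it was not above background, and was at least 12.6-fold lower. That bound holds for the processed signals and rests on 1 probe with 1 spot on each array. The log2 difference was -3.46 in the deposited values and -0.87 with normexp, both smaller than the bound and both still called lower. None of the other transcription and splicing regulators was called. Grhl2, a Grainyhead factor that drives Cdh1 and claudin genes, read 6.19 in NSD and was dim in HSD at 2.91, a bound of at least 1.30-fold lower that does not show whether it passed 1.5-fold. Esrp1, an epithelial splicing regulator, read 97.4 and 79.4 (-0.18), and Ehf, an Ets factor of epithelia, 25.2 and 24.8 (0.09). Each had a second probe that was dim on both arrays, at 3.88 and 0.942 for Esrp1 and at 0.937 and 3.14 for Ehf. With the median over both probes the differences became -1.05 for Esrp1 and 0.98 for Ehf. Elf3, another epithelial Ets factor, was dim at 2.95 and 1.64.

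Trp63, the p63 factor of basal and squamous cells, read 2075 in NSD and 1632 in HSD (-0.23). A second Trp63 probe, designed on another transcript, was dim on both arrays at 1.57 and 1.17. The high reading is therefore carried by 1 of its 2 probes, and which reading follows the gene was not tested.

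The serine proteases of epithelial surfaces and their inhibitors were present throughout. Spint2, a Kunitz-type inhibitor of such proteases, read 391 in NSD and 639 in HSD, 1.77-fold higher (0.82), and its second probe read 63.2 and 73.7 (0.34). St14, the membrane protease matriptase, read 30.5 and 37.3 (0.41). Prss8, the prostasin that acts with it, read 40.0 and 42.6 (0.21). Spint1, a second Kunitz-type inhibitor of matriptase, read 15.6 and 13.1 (-0.13). Probes of a gene did not always point the same way: the second probe of Prss8 read 26.0 and 13.4 (-0.84) and that of Spint1 7.96 and 12.5 (0.77), each opposite in sign to the brighter probe.

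Genes of desmosomes and hemidesmosomes, the rivets between cells and to the basement membrane, gave 1 call in each direction. Lamb3, a chain of the laminin under hemidesmosomes, was not above background in NSD (4.05) and read 11.8 in HSD, at least 2.77-fold higher on the processed signals, with a log2 difference of 1.27 in the deposited values and of 0.25, not called, with normexp. Perp, a membrane protein of desmosomes and a p53 and p63 target, read 22.4 in NSD and 9.41 in HSD, 2.20-fold lower (-1.13; -0.19 and not called with normexp). Dsp, the desmoplakin that ties desmosomes to keratins, had 10 spots per array and read 44.2 and 49.7 (0.28, 1.22-fold). Its scaled spots did not overlap between the arrays (-2.66 to -2.39 in NSD and -2.36 to -2.14 in HSD), although the raw signals did. As for Cdh1, the share of other repeated probes with such a gap was not counted. A second Dsp probe was dim on both arrays (4.08 and 1.12), and with the median over both probes in place of the brighter one the difference became -0.73. On their brightest probes, Dsp and Cdh1, the members with repeated spots, differed by less than 1.5-fold and in opposite directions.

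None of the remaining junction genes was called. Jup, the plakoglobin of desmosomes and adherens junctions, read 7.21 and 8.31 (0.32). Itgb4, the integrin chain of hemidesmosomes, read 20.4 and 22.5 (0.25), and Dsg2, a desmosomal cadherin, was dim in NSD at 4.82 and read 5.90 in HSD, a bound of at least 1.33-fold. Pkp3, a plakophilin, read 3228 and 3058, with a difference of 0.04 whose sign was the only one among members measured on both arrays to turn under another scaling. Of the other genes, Sfn, the 14-3-3 sigma protein of stratified epithelia, read 57.7 and 64.0 (0.26). Wfdc2, a secreted protein of glandular epithelia, read 14.5 and 12.1 (-0.14). Rab25, a small GTPase of epithelial trafficking, was dim at 1.25 and 2.93, as was Areg, an EGF receptor ligand, at 0.934 and 0.914.

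**Figure D4:**
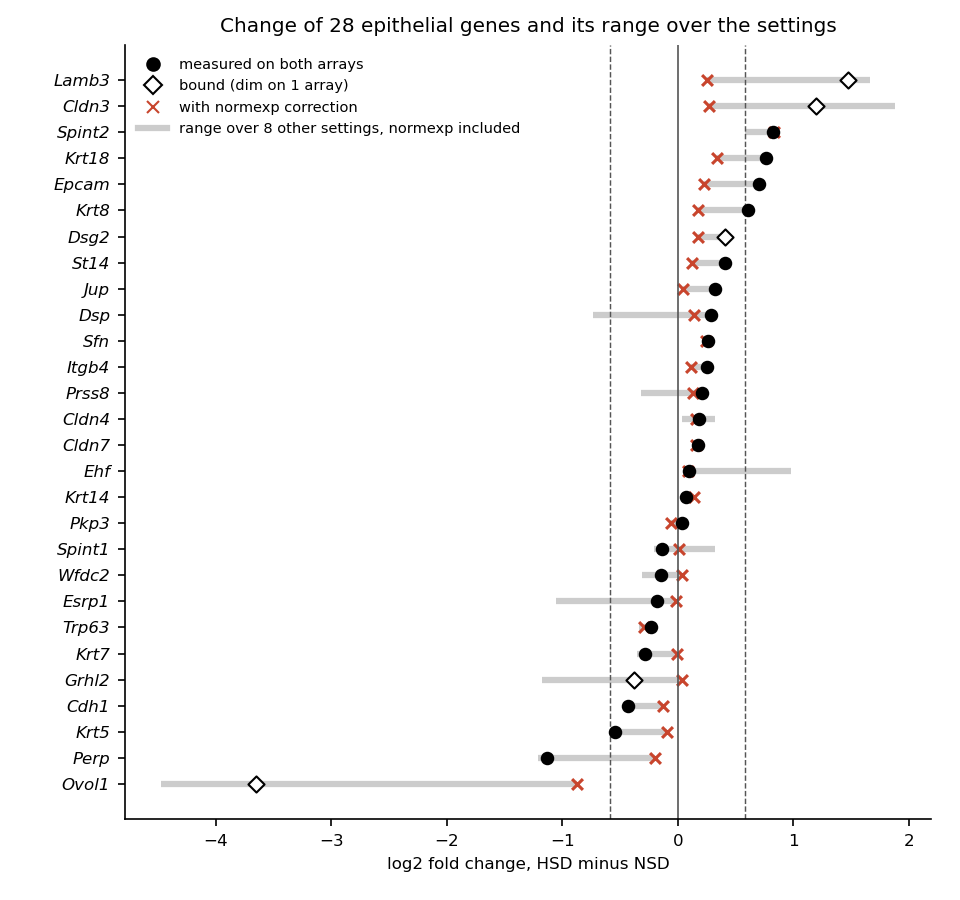
Log2 difference HSD minus NSD (x axis) for the 28 members above background on at least 1 array, in order of size, with dashed lines at 1.5-fold; circles are members measured on both arrays, open diamonds are bounds for members dim on 1 array, crosses are values after normexp background correction and grey bars the range over 8 other ways of processing. Krt8, Krt18, Epcam, Cldn3, Spint2 and Lamb3 lie beyond the line on the right, and Ovol1 and Perp beyond it on the left.

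The size of these differences was that of other genes. Among the 23 members measured on both arrays, log2 differences ran from -1.13 (Perp) to 0.82 (Spint2), and 17 lay within 0.5 of zero. Their median absolute difference was 0.26, against 0.27 over all genes measured on both arrays. Over 2773 genes of like signal, between 14.4 and 44.0, it was also 0.27, and 20.4% of those passed 1.5-fold. Repeated spots of 48 probes of like signal varied within an array with a median SD of 0.14, which corresponds to an SD of 0.20 for a difference between single spots. Apart from Cdh1 and Dsp, every member rests on single spots.

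**Figure D5:**
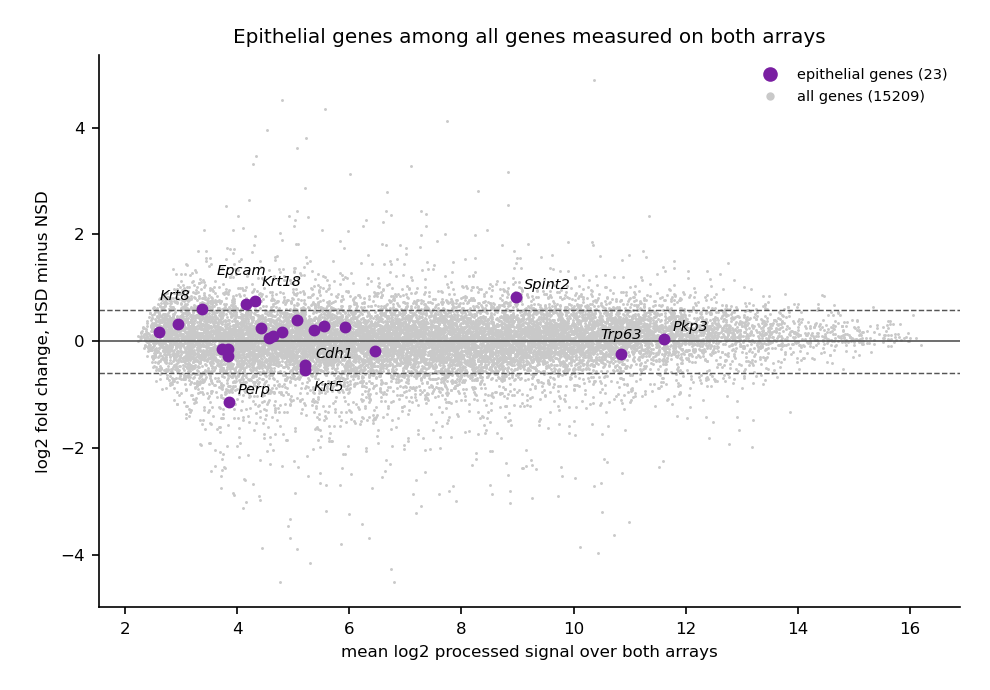
Log2 difference HSD minus NSD (y axis) against mean log2 processed signal (x axis) for all genes above background on both arrays, with the 23 members measured on both arrays drawn over them and dashed lines at 1.5-fold. The members lie mostly at low signal, between -1.13 and 0.82, inside the cloud of the other genes.

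Added up, the signals of the 34 members came to 6362 in NSD and 5925 in HSD, a scaled log2 ratio of 0.01, and Pkp3 and Trp63 make up most of both sums. Leukocytes are also known to express 6 of the genes (Areg, Cdh1, Jup, Spint1, Spint2 and St14), whose sums were 490 and 730 (0.69), mainly through Spint2. The 28 others summed to 5872 and 5196 (-0.06), with 5 higher and 2 lower of 23 with a usable fold change. The cells that carried these RNAs were not identified, and whether carcinoma cells contributed was not tested.

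Further epithelial genes, listed by role with earlier results of these data known, were read beside the set. Of 53, 32 were above background on both arrays and 18 on neither. Of the 35 with a usable fold change, 7 were called higher (20%) and 5 lower (14.3%). Over all genes with a usable fold change these shares were 9.86% and 10.3%. Among the junction genes, F11r, the junctional adhesion molecule A, read 74.0 and 142 (1.05), Cldn1 read 85.4 and 143 (0.85) and Cldn12 read 133 and 221 (0.85), so that 3 of 11 further tight junction genes were higher and none lower. Tjp3, a scaffold of the junction, read 860 and 533 (-0.58, not called). Further desmosome and hemidesmosome genes gave 3 lower and none higher of 8. Itga6, the partner chain of Itgb4, read 475 and 205 (-1.10), and Dst, a hemidesmosome linker, 81.1 and 44.5 (-0.75). Pkp4, named after its values were seen, read 35.6 in NSD and was not above background in HSD at 3.95, at least 7.48-fold lower.

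Of the further regulators and surface genes 3 of 10 were higher and 1 lower, beside 9.86% and 10.3% of all genes. Klf5, a Krüppel-like factor of basal epithelia, read 485 and 870 (0.96), Muc1, an apical mucin, 8.99 and 14.8 (0.83), and Grhl1 34.7 and 50.5 (0.66). Grhl3, the third Grainyhead factor, went the other way with 11.3 and 6.77 (-0.62), beside the Grhl2 values above. Among 9 further keratins, Krt10, a keratin of differentiating epidermis, was lower (12.2 and 6.53, -0.79), and Krt20, named after its values were seen, was dim in NSD at 1.65 and at least 6.30-fold higher in HSD at 26.9.

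Of the factors known to bind E-boxes of this kind, Zeb1 read 389 and 399 (0.15) and Zeb2 1150 and 1066 (0.00), which were named for that role. Binding to the printed copies was not tested. Snai1 was dim in NSD and read 6.10 in HSD, without a call, and Snai2 was dim on both arrays. Cdh2, the N-cadherin that often replaces Cdh1 in mesenchymal cells, read 47.5 and 39.4 (-0.16). Fn1, the fibronectin of the matrix, read 921 and 1189 (0.48), and Tgfbi, a matrix protein induced by TGF-beta, 10974 and 9100 (-0.16). Of 11 genes of the epithelial-mesenchymal transition, only Acta2, the smooth muscle actin of myofibroblasts, was called, higher in HSD with 1206 and 5660 (2.34).

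Markers of the labelled cell type were present: all 9 monocytic genes with a probe were above background on both arrays. Their signals ran from 119 to 51811 in NSD and from 139 to 48478 in HSD. Neutrophil, T cell and B cell markers with a probe were all above background on both arrays as well, and so were 73.6% of all named genes. Neutrophil markers reached higher than the monocytic ones, with signals up to 61817 in NSD and 59920 in HSD. Over all genes with a usable fold change, 9.86% were higher and 10.3% lower in HSD, and the lists here are small. Between the diets the monocytic genes gave 2 higher and 1 lower (summed signals 108760 and 105059), and the 8 neutrophil genes 1 lower (253619 and 244944). Macrophage genes were lower in 5 of 7 (14188 and 8678). T cell genes were lower in 1 of 7 (2860 and 3276), and none of 4 B cell genes was called (6089 and 7077). Fibroblast genes summed to 333 and 328, with 1 higher and 2 lower of 6 and Lum and Pdgfra at background, and endothelial genes to 190 and 203, with no call among 5 and Emcn at background. Whether cells of these other types were present, and their part in the epithelial values, was not tested.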

How the data were processed

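RNA of M-MDSCs was labelled with Cy3 and hybridised to Agilent 44 k mouse arrays, 1 per diet. The authors deposited the scanner output, whose processed signals are intensities corrected for background by Agilent Feature Extraction 11.0.1.1 and not normalized between arrays, and a table of log2 values that the authors normalized with GeneSpring GX by a method not given in the sources used here. Both columns of that table have the same median (4.61) and 75th percentile (7.89), and it served as an alternative. The median spot and background intensities deposited with them served only for normexp, since the files hold no mean signal.

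Control spots and outlier-flagged spots (162 in NSD and 179 in HSD, of 43020 non-control spots per array) were left out. Log2 signals of the remaining spots were averaged for each of 39413 probes, and each array was scaled by its 75th percentile. A probe was well above background where at least 50% of its spots were, which held for 71.9% and 72.4% of probes, and none was saturated. Transcript identifiers matched to RefSeq (GRCm38.p6) named 27223 probes (69.1%); the brightest probe stood for a gene. Ly6c2, Cd68 and Ly6g found no match. The design of the arrays predates that assembly, so only promoter windows carry coordinates. Calls needed 1.5-fold and a signal above background on at least 1 array. A gene dim on 1 array received a bound against the lowest signal above background there, or its own where that was higher, and none where that bound fell under 1. No p-value is given, because each diet has 1 array of pooled cells, which also limits the precision of each value.

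Of each companion list at most 4 genes are named, those with the largest differences among genes above background on both arrays, besides cell type markers, genes at background and exceptions marked in the text. The members and lists were chosen with earlier results of these data known. The 11 alternatives were another background correction, 4 other scalings, the deposited values, 2 filters, flagged spots kept, a 2-fold threshold and the median over probes. Calling was tested on simulated data. Python 3.11.15, R 4.3.3 and limma 3.58.1 were used.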

Additional observations from a re-analysis of the deposited data

How the results depend on the processing

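With normexp, which also replaces the processed by the median signal, 1 member was higher (Spint2) and 1 lower (Ovol1), and Krt8 (0.17), Krt18 (0.34), Epcam (0.23), Cldn3 (0.27), Lamb3 (0.25) and Perp (-0.19) kept their sign but not the call, while calls over all genes went from 1608 and 1682 to 619 and 655. Normexp adds an offset of 50, above the signals of most members, which pulls the differences of dim probes toward zero by construction. At 2-fold 2 members were higher (Cldn3, Lamb3) and 2 lower (Ovol1, Perp), and 428 and 681 of all genes. Counting only genes above background on both arrays left 4 higher and 1 lower (Perp). With no filter 7 were higher and 5 lower, adding Rab25 on one side and Ocln, Grhl2 and Elf3 on the other, none of which was above background in HSD. In the other 7 alternatives 5 or 6 members were higher and the same 2 lower; Krt8 dropped out under 4 of them and Spint2 (0.58) with the median over probes. Ovol1 was called in all 8 alternatives run for single genes, between -4.47 and -0.87. The members' median stayed between 0.03 and 0.14. Of the single-gene values under those 8 alternatives, 227 moved by less than 0.20, 1 SD of a difference between single spots, and 45 by more. The filters leave the median over all 34 as it is, and detection with the median over probes was not run. Low signal limits most members. Leaving out a replicate was not possible. No paired analysis was possible because each diet has 1 array.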

Other observations

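Genes of the mammary lineage, the tissue from which 4T1 cells derive, were listed by role and are background to the epithelial set. Of 16 with a probe, 6 were above background on both arrays and 7 on neither, the latter being Foxa1, Pgr, Csn2, Csn3, Tfap2a, Tfap2c and Sox9. Esr1, the oestrogen receptor, was read by 10 spots per array at 33.6 in NSD and 14.2 in HSD (-1.13), Prlr, the prolactin receptor, at 99.4 and 116 (0.33), Wap, a milk protein, at 7.23 and 7.61 (0.19), and Sox10, a factor of neural crest and of some mammary cells, at 26.6 and 22.4 (-0.13). Wnt4, named after its values were seen, was dim in NSD at 3.49 and read 47.5 in HSD, at least 11.1-fold higher. Erbb3, a receptor of the EGF receptor family also named after its values were seen, read 8.54 in NSD and was dim in HSD at 4.11, at least 1.79-fold lower.

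Of the EGF receptor and its ligands, Egf showed the largest difference, with 104 in NSD and 8.73 in HSD over 9 and 10 spots (-3.46, spot SDs 0.21 and 0.39). Nrg1 read 382 and 502 (0.51), Epgn 34.4 and 44.0 (0.47) and Egfr 22.5 and 23.2 (0.16). The ligands Btc and Ereg, like Areg, were not above background on either array, and Egf was the only gene of the list of 8 that was called.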
